A study of Mus musculus with 20 samples.

Results

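The immediate early genes *Fos*, *Fosb*, *Jun*, *Junb*, *Egr1*, *Ier2*, *Atf3*, *Dusp1*, *Nr4a1* and *Npas4*, 10 of the 17101 genes in the deposited table, were examined in donor T cells after allogeneic transplantation. They were picked by name, with the differences between KO and WT cells in these libraries already known, so the KO and WT values of the 10 genes are given below as a description without a test. The differences between T cell subsets of 1 genotype were tested. For genotype by subset, and for other gene lists between KO and WT, results of the fits are given as a description only.

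Immediate early genes are transcribed within minutes of a stimulus, before any new protein is needed, and their mRNAs are short-lived. In T cells they respond to antigen receptor engagement through MAPK, calcium and serum response factor signaling, and they are also known to respond to stress, including the handling of tissue and cells. Most of their products are transcription factors that pass the signal to later genes, and others shut the signal down.

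RNA was sequenced from T cells of donor origin that had been sorted from the spleens of mouse recipients on day +10 of the B6→F1 model, in which donor T cells meet a haploidentical host. The 20 libraries fell into 5 groups of 4, namely CD4+ and CD8+ cells of each genotype and, from KO donors only, cells positive for both (DP). WT DP cells were not analysed here. Libraries are named by the number in their labels, which is 1 to 4 for KO and 2, 3, 5 and 6 for WT and is called the animal number here, and values are listed in that order.

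KO donors carried *Dnmt3a* flanked by 2 loxP sites and a Cre transgene driven by the *Cd4* promoter, which is switched on during T cell development in the thymus, so that mature CD4+ and CD8+ T cells both carry the deletion and other cell types are spared. WT donors were littermates without the deletion. By the sample records donors were 6 to 12 and recipients 8 to 12 weeks old (the study's methods give 8 to 12 weeks for donors too), and no group was left untransplanted. Between 37547651 and 46966318 read pairs fell on genes in each library, and all values are normalized counts, that is, read pairs divided by a size factor per library. With 4 animals per group, the spread between animals sets the precision for all but the rarest members.

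The 8 pan-T cell markers examined, among them *Cd3e* and *Lck*, were detected in all 20 libraries, with a summed level of 154129 to 267881 normalized counts. *Cd4* was at 64652 to 72567 in WT CD4+, 44804 to 74386 in KO CD4+ and 8758 to 15351 in KO DP cells, but at 9.88 to 79.6 in WT CD8+ and 302 to 458 in KO CD8+ cells. *Cd8a* was at 41594 or more in every CD8+ and DP library, and at 99.1 to 586 in WT CD4+ and 78.3 to 3771 in KO CD4+ cells, where 3771 was animal 1 and the other 3 were at 227 or less. The markers thus followed the sorted subsets. *Dnmt3a*, the targeted gene, was at 4906, 4690, 4839 and 5171 in WT CD4+ and 3549, 3542, 3756 and 3812 in WT CD8+ cells. KO libraries had 1658, 1628, 1640 and 1385 in CD4+, 2007, 1287, 1515 and 1664 in CD8+ and 1571, 1021, 650 and 1332 in DP cells. Every KO library was below every WT library, with KO means at 32.2% and 44.2% of the WT means in CD4+ and CD8+ cells (log2 differences -1.64 and -1.20, SE 0.08 and 0.12, limma adjusted p = 1.26e-05 and 0.000654). The counts sum over all exons and do not separate transcripts with the deletion from intact ones. KO DP animal 3 had the fewest genes with reads, 11783, against 13203 to 14677 in the other 19 libraries.

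*Fos* encodes the AP-1 subunit that binds DNA as a heterodimer with JUN proteins. It was at 2706, 2934, 4816 and 6080 normalized counts in WT CD4+ cells and at 1594, 1929, 2619 and 3138 in WT CD8+ cells. In KO cells it was at 386, 258, 751 and 731 in CD4+, 448, 144, 307 and 303 in CD8+ and 288, 73.6, 345 and 347 in DP cells. All 8 WT libraries were above all 12 KO libraries, whereas the 2 WT groups overlapped each other, as did the 3 KO groups. The KO mean was 7.78-fold lower than the WT mean in CD4+ cells (log2 difference -3.01, SE 0.36) and 7.72-fold lower in CD8+ cells (-3.00, SE 0.33). Because these are bulk samples, fewer cells with the transcript and less RNA per cell cannot be told apart, here or for the other members.

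*Fosb*, a close relative of *Fos*, showed the largest ratio between group means of the genotypes among the members in both subsets. It was at 801, 1151, 2102 and 3226 in WT CD4+ and 722, 1129, 1604 and 1931 in WT CD8+ cells. The KO values were 152, 51.1, 64.9 and 78.0 in CD4+, 197, 21.6, 71.8 and 83.3 in CD8+ and 160, 8.83, 65.8 and 67.1 in DP cells, so that the groups of the 2 genotypes did not overlap. Animal 1 had the highest and animal 2 the lowest *Fosb* count in each KO subset. The KO mean was 21.0-fold lower than WT in CD4+ cells (log2 difference -4.30, SE 0.44) and 14.4-fold lower in CD8+ cells (-4.12, SE 0.58).

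*Jun*, which encodes the partner that joins FOS or itself in AP-1, was at 2658, 3409, 4854 and 6841 in WT CD4+ and 2450, 2890, 3807 and 4730 in WT CD8+ cells. KO libraries had 587, 347, 835 and 937 in CD4+, 705, 110, 499 and 854 in CD8+ and 495, 130, 600 and 873 in DP cells. The WT and KO libraries did not overlap, and animal 2 was the lowest in each KO subset. The KO mean was 6.57-fold lower than WT in CD4+ (log2 difference -2.72, SE 0.34) and 6.40-fold lower in CD8+ cells (-2.97, SE 0.56).

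*Junb*, the most abundant member by count, encodes a JUN protein with weaker activity on many promoters. It was at 15189, 15020, 20909 and 21792 in WT CD4+ and 9194, 8794, 11707 and 11790 in WT CD8+ cells, against 7505, 7903, 13426 and 11937 in KO CD4+, 5602, 4880, 7992 and 7241 in KO CD8+ and 5121, 5309, 14630 and 8952 in KO DP cells. Within each subset the WT libraries were above the KO libraries, but KO CD4+ and DP cells overlapped WT CD8+ cells. The KO mean was 1.79-fold lower in CD4+ (log2 difference -0.86, SE 0.20) and 1.61-fold lower in CD8+ cells (-0.70, SE 0.17), much less than for *Fos*, *Fosb* and *Jun*.

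*Atf3*, a stress-induced factor of the ATF family, was near the floor of the table. It was at 54.6, 50.4, 49.5 and 24.8 in WT CD4+ and 43.6, 40.3, 40.4 and 35.2 in WT CD8+ cells. In KO cells it ranged from 0 to 19.1 in CD4+, 0 to 21.6 in CD8+ and 0 to 9.71 in DP cells, below every WT library. The KO mean was 5.20-fold lower in CD4+ (log2 difference -2.94, SE 0.88) and 6.52-fold lower in CD8+ cells (-3.74, SE 0.96), which rests on few reads. With a pseudocount of 10 the log2 differences were -1.65 and -1.81.

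*Egr1* encodes a zinc-finger factor induced through MAPK and serum response factor. It was at 3342, 2613, 3513 and 3793 in WT CD4+ and 1756, 1973, 2314 and 2255 in WT CD8+ cells. KO libraries had 1692, 1540, 3506 and 4051 in CD4+, 763, 516, 2137 and 1737 in CD8+ and 815, 520, 1084 and 2237 in DP cells. Here the genotypes overlapped in both subsets, because animals 3 and 4 of the KO group reached WT levels in CD4+ cells and animal 3 did so in CD8+ cells. The log2 differences between KO and WT were -0.41 (SE 0.29) and -0.91 (SE 0.40) in CD4+ and CD8+ cells.

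*Nr4a1* encodes the orphan nuclear receptor NUR77, widely used as a readout of antigen receptor signaling. WT CD4+ cells had 2395, 2297, 3080 and 2947 and WT CD8+ cells 1595, 1675, 2110 and 2263, whereas KO cells had 914, 1437, 2171 and 1902 in CD4+, 439, 598, 1228 and 761 in CD8+ and 602, 658, 1121 and 1012 in DP cells. WT and KO did not overlap within a subset, by a narrow margin in CD4+ cells, where KO animal 3 at 2171 lay just below WT animal 3 at 2297. The KO mean was 1.67-fold lower in CD4+ (log2 difference -0.80, SE 0.23) and 2.53-fold lower in CD8+ cells (-1.42, SE 0.28). *Npas4*, which encodes a bHLH-PAS factor best known from neurons, was the only member with a higher mean in WT CD8+ than in WT CD4+ cells. It was at 56.8, 30.3, 99.1 and 113 in WT CD4+ and 77.6, 122, 150 and 107 in WT CD8+ cells, and at 0 to 14.3 in KO CD4+, 0 to 41.5 in KO CD8+ and 0 to 29.8 in KO DP cells. The WT and KO libraries did not overlap within CD4+ or within CD8+ cells. Between genotypes the means differed 7.65-fold in CD4+ (log2 difference -3.23, SE 0.88) and 10.2-fold in CD8+ cells (-4.95, SE 1.08), on few reads. With a pseudocount of 10 the CD8+ log2 difference was -2.91. The CD4+ log2 difference ran from -3.65 to -2.05 over the 7 alternatives with all libraries. The values 41.5 in KO CD8+ animal 3 and 29.8 in KO DP animal 3 stood far above the rest of their groups.

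*Dusp1* encodes a nuclear phosphatase that switches off MAPKs. It was at 2742, 4022, 5513 and 6085 in WT CD4+ and 1151, 1649, 2563 and 2416 in WT CD8+ cells. KO libraries had 1425, 642, 1957 and 1958 in CD4+, 543, 408, 544 and 389 in CD8+ and 750, 524, 866 and 510 in DP cells. The genotypes did not overlap within a subset, and the KO mean was 3.07-fold lower in CD4+ (log2 difference -1.68, SE 0.35) and 4.13-fold lower in CD8+ cells (-1.99, SE 0.25). *Ier2*, a short gene whose product is a nuclear protein with less well known roles, was the member that differed least between genotypes. It was at 5774, 5531, 6318 and 7129 in WT CD4+, 4683, 4568, 4818 and 5464 in WT CD8+, 5973, 5153, 5957 and 6523 in KO CD4+, 4144, 4627, 3831 and 4780 in KO CD8+ and 4689, 4642, 6596 and 4933 in KO DP cells. The WT and KO ranges overlapped in both subsets, with log2 differences of -0.07 (SE 0.10, 95% CI -0.29 to 0.15) in CD4+ and -0.17 (SE 0.09, 95% CI -0.37 to 0.03) in CD8+ cells.

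**Figure D1:**
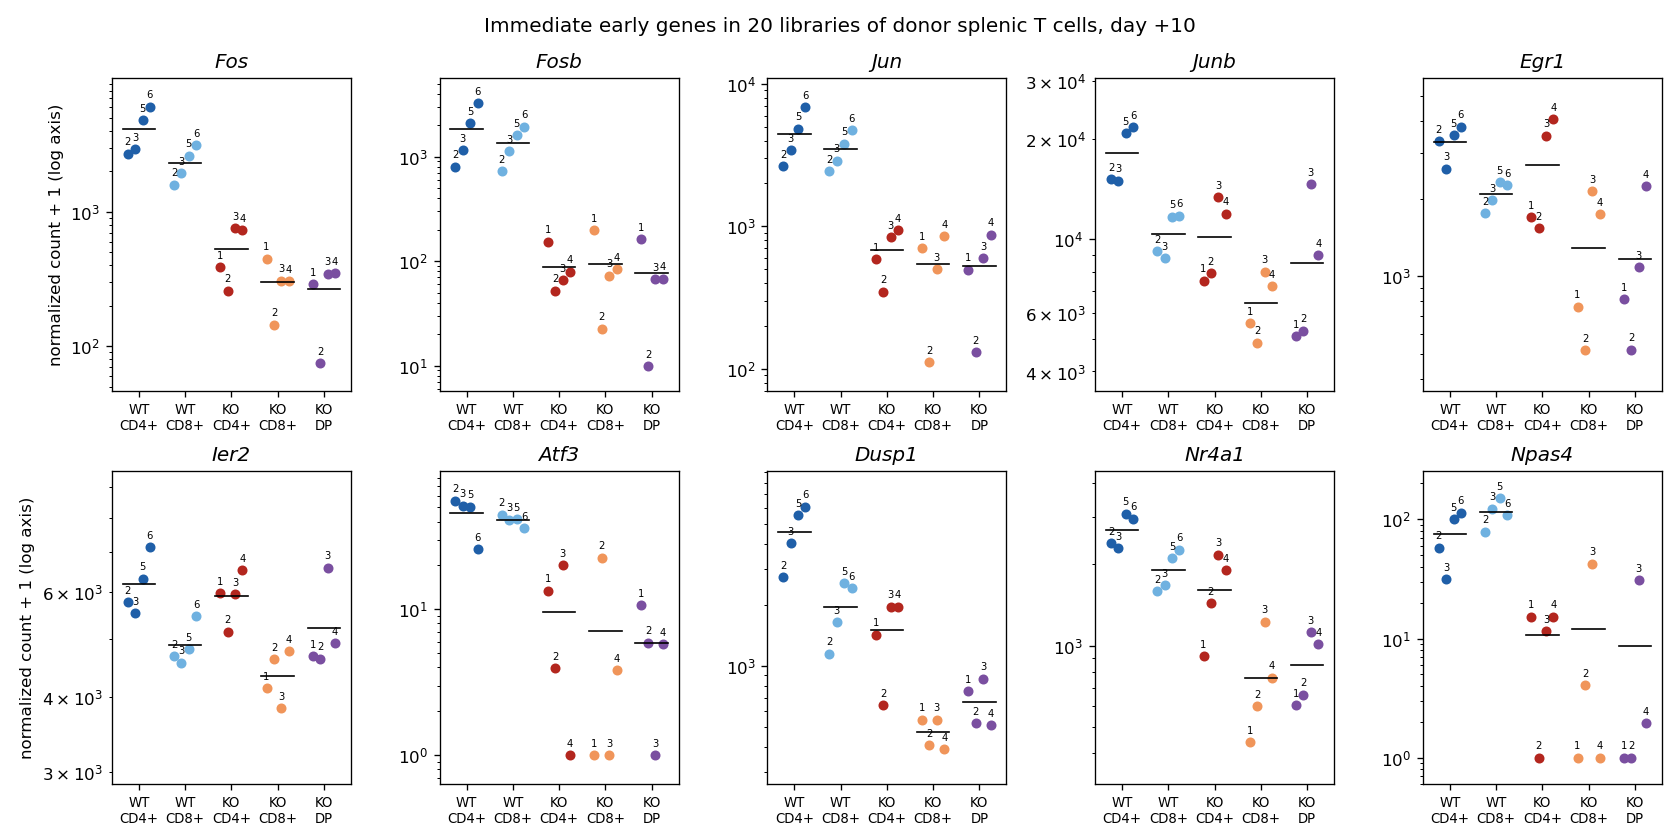
Normalized counts plus 1 (log axis) of the 10 members in the 4 libraries of each group, with animal numbers above the points and group means as black lines. *Fos*, *Fosb* and *Jun* separate the 8 WT from the 12 KO libraries, whereas *Egr1* and *Ier2* overlap between genotypes.

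Side by side, 8 of the 10 members were lower in KO than in WT CD4+ cells without overlap between the groups, as were 13.3% of the 12391 genes tested, and 8 were lower without overlap in CD8+ cells, as were 15.5% of 12383 genes. The same 8 genes, that is, all except *Egr1* and *Ier2*, made up both counts. The members were chosen with this contrast in view, and nothing is read from these counts. Their median log2 difference was -2.20 in CD4+ and -2.48 in CD8+ cells, where the median of all genes tested was -0.05 and -0.04.

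Levels of different genes were compared per kilobase of RefSeq exon. On this scale *Junb* led in WT CD4+ cells with a mean of 9906 normalized counts per kilobase, followed by *Ier2* (4066), *Dusp1* (2364), *Fos* (1960) and *Jun* (1393). The ranges of *Dusp1* (1412 to 3134), *Fos* (1283 to 2883) and *Jun* (834 to 2146) overlapped. *Nr4a1* (1082) and *Egr1* (1079) differed by less than the spread between animals, *Fosb* stood at 482, and *Npas4* (22.8) and *Atf3* (22.7) were rare. In KO CD8+ cells *Junb* (3494) and *Ier2* (2855) again led per kilobase. By mean, *Egr1* (419) and *Nr4a1* (305) came next, ahead of *Dusp1* (242), *Jun* (170) and *Fos* (142). The ranges between animals overlapped, at 168 to 696 for *Egr1*, 177 to 496 for *Nr4a1*, 200 to 280 for *Dusp1*, 34.6 to 268 for *Jun* and 68.3 to 212 for *Fos*. *Fos* and *Jun* were thus above *Egr1* and *Nr4a1* per kilobase in the WT CD4+ means and below them in the KO CD8+ means. In WT CD4+ cells, however, the range of *Jun* took in those of *Egr1* (851 to 1235) and *Nr4a1* (927 to 1243). Means of *Fos*, *Jun*, *Egr1* and *Nr4a1* were 1100, 1089, 675 and 771 in WT CD8+ cells. In KO CD4+ cells they were 252, 212, 878 and 648.

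In WT cells, 6 of the 10 members were higher in CD4+ than in CD8+ cells, where 22.3% of the 12559 genes tested were. *Dusp1* had the largest difference (log2 1.24, SE 0.26, limma adjusted p = 0.00146), followed by *Junb* (0.80, SE 0.13, adjusted p = 0.000213), *Fos* (0.80, SE 0.25, adjusted p = 0.0168) and *Egr1* (0.67, SE 0.11, adjusted p = 0.000249). *Nr4a1* (0.49, SE 0.12, adjusted p = 0.0044) and *Ier2* (0.34, SE 0.08, adjusted p = 0.00307) were also higher. For 5 of these, all but *Fos*, the 2 groups did not overlap, as for 21% of genes in this direction. The call of *Fos* was lost without WT CD4+ replicate 5 (adjusted p = 0.0548), WT CD4+ replicate 6 (0.0511) or WT CD8+ replicate 2 (0.0592).

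Within animals, the WT subset difference was regular. *Dusp1* was 2.15 to 2.52 times higher in the CD4+ than in the CD8+ library of the same animal, *Junb* 1.65 to 1.85 times, *Fos* 1.52 to 1.94 times and *Ier2* 1.21 to 1.31 times. For 8 members the ratio was above 1 in 4 of 4 animals, the smallest being 1.02 for *Fosb* and 1.08 for *Jun*. With animal number as a block, *Fosb* (log2 0.33, adjusted p = 0.0125 instead of 0.509) and *Jun* (0.31, adjusted p = 0.000975 instead of 0.343) passed as well, giving 8 of 10 members against 24.4% of genes. Without the block and without 1 library their log2 differences ran from -0.02 and 0.07 (WT CD4+ replicate 6 left out) to 0.65 and 0.53 (WT CD4+ replicate 2 left out), and passed in none of these fits. *Atf3* did not pass (log2 0.11, 95% CI -0.56 to 0.78, adjusted p = 0.809). *Npas4* went the other way (log2 -0.73, 95% CI -1.52 to 0.06, adjusted p = 0.124, or 0.0588 with the block), with a CD4+ to CD8+ ratio of 0.248 to 1.06, and passed only without WT CD4+ replicate 6 (log2 -0.98, adjusted p = 0.045).

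In KO cells, 9 members passed the filter on low values, *Atf3* being left out. *Dusp1* (log2 1.55, SE 0.33, limma adjusted p = 0.0311) and *Ier2* (0.44, SE 0.11, adjusted p = 0.0474) were higher in CD4+ than in CD8+ cells, 2 of 9 members against 2.73% of the 12189 genes tested. Both separated the groups without overlap, as did 6.18% of genes in this direction. *Dusp1* was 1.58 to 5.03 times and *Ier2* 1.11 to 1.55 times higher in the CD4+ library of the same animal. Both calls depended on single libraries. *Dusp1* passed in 7 of 7 alternatives with all libraries (adjusted p 1.18e-05 to 0.0367), but lost its call without KO CD4+ replicate 1, 3 or 4 or KO CD8+ replicate 2, 3 or 4 (adjusted p 0.0509 to 0.0966, log2 1.38 to 1.63), and *Ier2* in each such fit except the one without KO CD4+ replicate 2 (0.0622 to 0.139 where lost). The *Ier2* call also ended with no filter (0.0549), quantile normalization (0.0649), a common 75th percentile (0.067) or edgeR (0.0525), and held with a pseudocount of 10 (0.0436), DESeq2 (0.00636) or the animal block (0.00517). Its log2 difference was 0.43 to 0.44 over these alternatives and 0.38 to 0.51 without 1 library.

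In this KO comparison *Nr4a1* passed by DESeq2 (adjusted p = 0.0236). It also passed by limma without KO CD8+ replicate 3 (log2 1.38, adjusted p = 0.0464). With animal number as a block, *Junb* (log2 0.65, adjusted p = 0.000267 instead of 0.168), *Egr1* (1.16, adjusted p = 0.000271 instead of 0.278), *Nr4a1* (1.12, adjusted p = 0.000155 instead of 0.121) and *Fos* (0.79, adjusted p = 0.0481 instead of 0.437) also passed, which made 6 of 9 members against 10.2% of genes. *Egr1* was 1.64 to 2.99 times, *Nr4a1* 1.77 to 2.50 times and *Junb* 1.34 to 1.68 times higher in CD4+ than in CD8+ cells of the same animal. *Fos* was higher in 3 of 4 animals. *Jun* (log2 0.56, 95% CI -0.76 to 1.89), *Fosb* (0.15, 95% CI -1.25 to 1.55) and *Npas4* (0.99, 95% CI -2.21 to 4.19) passed in neither fit, and their intervals are wide. The direction is not settled for these 3. *Fosb* and *Npas4* had lower group means in CD4+ cells (86.5 and 9.78 against 93.4 and 11.1) and log2 differences down to -0.12 and -0.19 in the alternatives, and *Fosb* and *Jun* were at -0.41 and -0.08 without KO CD8+ replicate 2. *Fosb* was higher in the CD4+ library of 1 of 4 animals.

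KO DP cells were set against the CD4+ and the CD8+ cells of the same genotype, with 8 members tested in each case because *Atf3* and *Npas4* were filtered out. None of the 8 passed as lower than in KO CD4+ cells by limma, where 1.26% of the 12175 genes tested did. In either direction, limma called 1.95% of genes and the fit with the animal block 7.06%. EdgeR called 0 members and 1.58% of genes, and DESeq2 called 1 member and 5.98% of genes, also in either direction. The unadjusted p was under 0.05 for 3 members, all lower, and for 14.9% of genes in either direction. With animal number as a block, 4 of 8 members were lower in DP cells against 4.41% of genes, namely *Egr1* (log2 -1.29, adjusted p = 0.00836 instead of 0.208), *Nr4a1* (-0.90, adjusted p = 0.0118 instead of 0.187), *Fos* (-1.10, adjusted p = 0.043 instead of 0.364) and *Dusp1* (-1.08, adjusted p = 0.0476 instead of 0.173). *Dusp1* also passed by DESeq2 (adjusted p = 0.0182) and without KO CD4+ replicate 2 (0.0279). In 4 of 4 animals the DP library was below the CD4+ library for these 4 members and for *Jun*, with ratios of 0.309 to 0.552 for *Egr1* and 0.458 to 0.659 for *Nr4a1*.

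Between DP and KO CD8+ cells the difference was resolved for none of the 8 members tested. Limma called 0, where 0.00823% of the 12153 genes tested passed in either direction, and edgeR (0.00823% of genes), DESeq2 (0.0247%) and the fit with the animal block (0.00823%) also called 0, as did an unadjusted p under 0.05 (1.95%). The log2 difference ranged from -0.48 for *Fosb* (95% CI -2.49 to 1.52) to 0.47 for *Dusp1* (95% CI -0.05 to 0.99). Without 1 library it ran from -1.04 to 0.32 for *Fosb* and from 0.33 to 0.58 for *Dusp1*. It also took both signs for *Fos*, *Jun*, *Junb*, *Egr1* and *Nr4a1* in these fits. *Dusp1* was 1.28 to 1.59 times higher in the DP than in the CD8+ library in 4 of 4 animals, and *Fosb* was lower in 4 of 4, at 0.408 to 0.916 times the CD8+ value. *Ier2* was above its CD8+ value in 4 of 4, by as little as 1.00 and up to 1.72 times. The intervals of *Fosb*, *Jun* (-1.59 to 1.60) and *Egr1* (-1.30 to 1.04) leave room for differences of more than 2-fold in either direction.

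By limma the subset difference of KO cells was not shown to differ from that of WT cells for any member. This contrast is built from the KO and WT comparisons known when the members were picked. Its member counts are therefore a description, and nothing is concluded from them. In the test of genotype by subset over CD4+ and CD8+ cells, limma called 0 of 10 members and 0.0161% of 12446 genes, and 0 members had an unadjusted p under 0.05, as 6.37% of genes did. EdgeR and DESeq2 also called 0 members, with 0.00803% and 0.169% of genes, and the fit with the animal block called 1, *Nr4a1*, with 1.39% of genes. The CD4+ to CD8+ ratio of *Nr4a1* within animals was 1.77 to 2.5 in KO and 1.3 to 1.5 in WT cells.

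**Figure D2:**
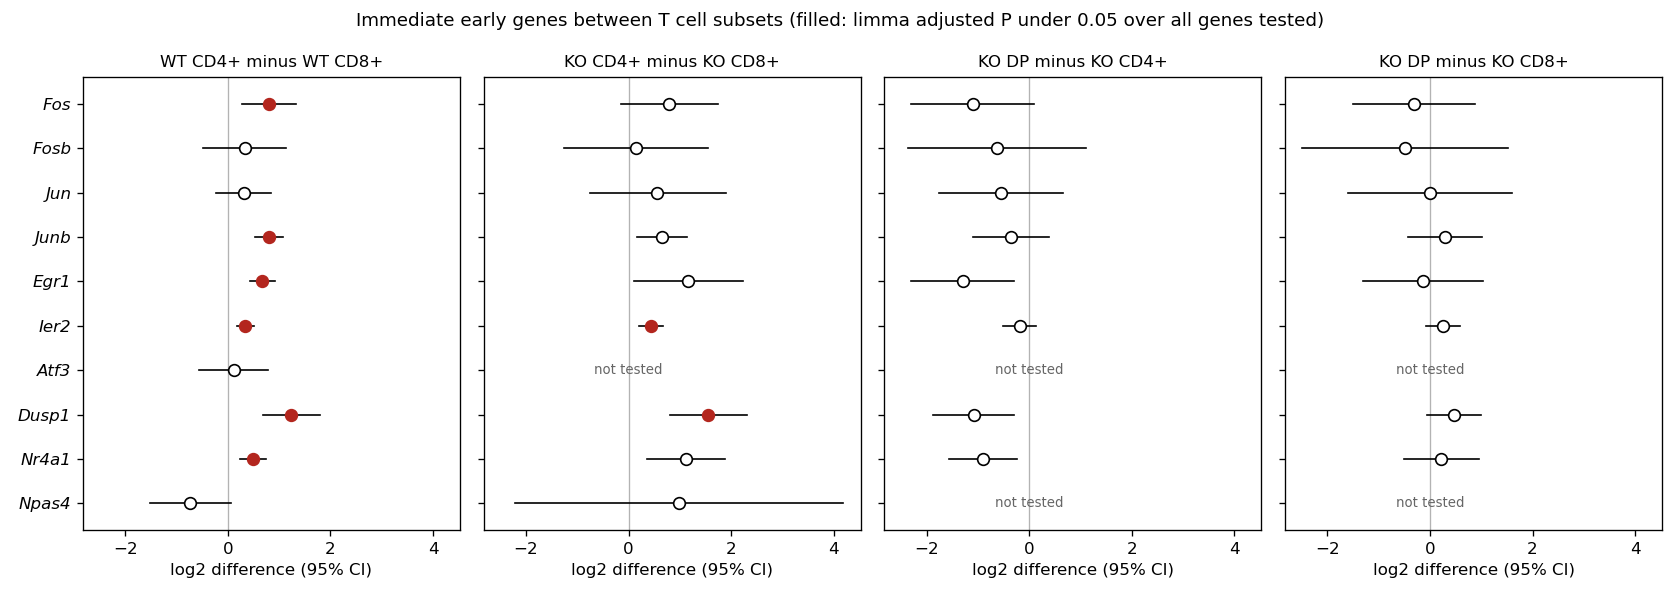
Log2 difference of each member between T cell subsets of 1 genotype, with 95% CIs and filled points where the limma adjusted p was under 0.05. Filled points are the 6 members higher in WT CD4+ than CD8+ cells and *Dusp1* and *Ier2* in KO cells, and no member is filled in the DP panels. The fit shown does not pair libraries by animal. With animal number as a block, 8 members passed in WT and 6 in KO CD4+ against CD8+ cells. That fit called 4 in DP against KO CD4+ and 0 in DP against KO CD8+ cells.

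Other genes known to be induced early were taken from 3 lists with 56 genes in the table, which hold relatives of the members and feedback regulators. These lists, like those used below, were chosen with earlier results of these data known. Their counts and adjusted p values between KO and WT are therefore a description and not independent evidence. In CD4+ cells, 15 of the 52 tested were lower and 2 higher in KO than in WT, against 9.77% and 8.59% of all genes, with a median log2 difference of -0.38 against -0.05 over all genes. In CD8+ cells, 21 of 51 were lower and 1 higher, against 12.5% and 12.6%, with a median of -0.50 against -0.04. *Ppp1r15a*, which encodes a phosphatase subunit of the stress response, fell in both subsets (log2 -2.10, adjusted p = 0.00165, and -2.17, adjusted p = 0.00143), as did *Rgs1*, a regulator of G protein signaling (-1.40, adjusted p = 0.00408, and -1.97, adjusted p = 0.000172). Among relatives of *Nr4a1*, *Nr4a2* (-1.93 and -2.29) and *Nr4a3* (-1.35 and -1.52) fell in both, and so did the *Fos* relative *Fosl2* (-0.87 and -0.98). *Jund*, a relative of *Jun*, passed only in CD8+ cells (-0.39). Among *Egr1* relatives, *Egr4* fell in CD4+ cells (-3.66, adjusted p = 0.0221) and was too rare to test in CD8+ cells, and *Egr2* and *Egr3* passed in neither subset. *Plk2* (-2.19, adjusted p = 0.0149) and *Batf3* (-1.53, adjusted p = 0.0408) fell in CD4+ cells, and *Ier5l* (-4.09, adjusted p = 0.0118) and *Klf4* (-1.51, adjusted p = 0.0086) in CD8+ cells. The *Dusp1* relatives *Dusp2*, *Dusp4* and *Dusp6* passed in neither subset, whereas *Dusp10* was lower in CD8+ cells (-0.50) and *Dusp5* higher in CD4+ cells (0.39, adjusted p = 0.0455). *Cd69* in CD4+ cells (0.83, adjusted p = 0.0305) and *Zfp36l2* in CD8+ cells (1.10, adjusted p = 0.0153) were the other genes that rose. The CD4+ count of lower genes was 9, 7 or 6 without WT CD4+ replicate 3, 5 or 6, and the CD8+ count 13 or 12 without WT CD8+ replicate 5 or 6. The counts of higher genes ran from 0 to 4 in CD4+ and 0 to 3 in CD8+ cells without 1 library.

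The other early genes were also compared between subsets. In WT cells 28 of 52 were higher and 8 lower in CD4+ than in CD8+ cells, against 22.3% and 22.2% of all genes, with *Egr2* (log2 1.60) and *Egr3* (1.58) higher, like *Egr1*, but *Nr4a2* (-2.33) and *Fosl2* (-0.92) lower, unlike *Nr4a1* and *Fos*. In KO cells 5 of 51 were higher (*Cd69*, *Trib1*, *Plk3*, *Nfkbiz* and *Ier5*) and 0 lower by limma, against 2.73% and 1.48% of all genes. By DESeq2 13 were higher and 1 lower, where 7.84% of all genes were called in either direction. With the animal block 28 were higher, against 10.2% of all genes, and 5 lower, where 18.9% were called in either direction. The limma count of higher genes ran from 4 to 8 without 1 library, 8 being without KO CD4+ replicate 2. DP cells had 4 of 51 lower than KO CD4+ cells by limma (*Cd69*, *Trib1*, *Plk3* and *Nfkbiz*), against 1.26% of all genes. With the block 14 were lower, against 4.41% of all genes, and 2 higher. In either direction edgeR called 3 (1.58% of all genes), DESeq2 11 (5.98%) and the block 16 (7.06%). The 4 called lower by limma became 0 without KO CD4+ replicate 3 or 4 or KO DP replicate 2, 1 without KO CD4+ replicate 1 and 2 without KO CD4+ replicate 2. Against KO CD8+ cells 0 were called by limma, edgeR, DESeq2 or an unadjusted p under 0.05.

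The kinases and transcription factors that act upstream of the members, a list of 33 genes in the table, were examined in the same way. In CD4+ cells 5 of 32 were higher and 3 lower in KO than in WT, against 8.59% and 9.77% of all genes, and in CD8+ cells 8 of 33 were higher and 2 lower, against 12.6% and 12.5%. The median log2 difference was 0.07 in both subsets. *Crem*, a CREB family gene that is itself inducible, fell in CD4+ (log2 -1.37, adjusted p = 0.0133) and CD8+ cells (-1.35, adjusted p = 0.00143). *Crtc3*, a CREB coactivator, rose (0.64, adjusted p = 0.00862, and 0.82, adjusted p = 0.00407), and *Elk4*, a partner of serum response factor, rose in CD8+ cells (1.02, adjusted p = 0.00511). *Elk1* and *Rps6ka3* were not analysed here.

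The members also varied between animals of 1 group. In WT cells animals 5 and 6 were above animals 2 and 3 in both subsets for 8 of the 10 members, the exceptions being *Atf3* and *Npas4*. This count, like the count of member pairs below, was not set against all genes and is given as a description. *Fosb* spanned the widest range, 4.03-fold in CD4+ and 2.67-fold in CD8+ cells, and *Ier2* the narrowest, 1.29-fold and 1.20-fold. In KO cells animal 2 was the lowest for 7 members in CD4+, 5 in CD8+ and 5 in DP cells, where it also shared the lowest *Npas4* value, 0, with animal 1. With group means subtracted, the Pearson r of log2 values over the 20 libraries, which share animals, was above 0 for 35 of 45 member pairs, with a median of 0.42, and was 0.917 for *Fos* and *Jun*, which thus moved together between the animals of a group. The r was below 0 for *Atf3* with every other member, from -0.495 with *Junb* to -0.215 with *Ier2*, and for *Fosb* with *Nr4a1* (-0.014).

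A member score, the mean of the 10 z scores in each library, was used to find genes with the most similar pattern among 10701 genes with a mean of at least 50. Over the 20 libraries these were *Casp1* (r = 0.948), *Ddx5* (0.942), *Trp53bp1* (0.940), *Ppp1r15a* (0.938), *Lilrb4a* (0.937), *Rgs1* (0.937), *Tnip2* (0.937) and *Mapk8ip1* (0.930). With group means subtracted, *Jund* (0.949) and *Nfkbia* (0.936), a feedback inhibitor of NF-κB, were the most similar, followed by *Trim8* (0.917), *Sccpdh* (0.897), *Fam220a* (0.896), *Mocos* (0.895), *Cd82* (0.889) and *Dusp6* (0.888). The lists of 8 had no gene in common, and *Ppp1r15a*, *Rgs1*, *Jund*, *Nfkbia* and *Dusp6* are among the other early genes described above.

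Heat shock genes were examined because stress induces them together with several members. *Hspa1a* was at 2221, 4506, 7352 and 10881 in WT CD4+ and 1435, 2664, 4529 and 6483 in WT CD8+ cells, but at 33.5, 34.4, 82.1 and 13.2 in KO CD4+, 15.0, 4.12, 25.8 and 57.8 in KO CD8+ and 6.47, 0, 127 and 38.4 in KO DP cells. The WT animals thus stood in the same order for *Hspa1a* as for *Fos*, *Fosb* and *Jun* in both subsets. *Hspa1a* and *Hspa1b* are nearly identical, so the split of reads between them is uncertain. Of the 15 heat shock genes tested, 4 were lower and 0 higher in KO in each subset. Of all genes, 9.77% and 12.5% were lower and 8.59% and 12.6% higher in CD4+ and CD8+ cells. The 4 were *Hspa1a* (log2 -7.26 and -7.42), *Hspa1b* (-7.08 and -7.05), *Hsph1* (-1.01 and -0.88) and *Hsf1* (-0.40 and -0.62). The 4 most abundant genes, *Hsp90ab1* (-0.01 and 0.06), *Hspa8* (-0.04 and 0.03), *Hsp90aa1* (-0.37 and -0.29) and *Hspd1* (-0.30 and -0.36), did not pass. The summed level of the list, led by *Hsp90ab1* in the mean over all libraries, was 326302 to 359011 in WT and 264310 to 368223 in KO libraries. The r of *Hspa1a* with the member score was 0.923 over the 20 libraries and 0.780 with group means subtracted. Among the 10701 genes compared it ranked 11 and 146. The r was 0.922 and 0.794 for *Hspa1b* (ranks 13 and 116). It was 0.67 and 0.367 for *Hsph1* (ranks 1011 and 2403) and 0.442 and 0.291 for *Dnajb1* (2526 and 3003). The r over the 20 libraries includes the KO and WT difference known when the members were picked. The part of a stress response, before or during cell preparation, in the member levels was not tested.

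**Figure D3:**
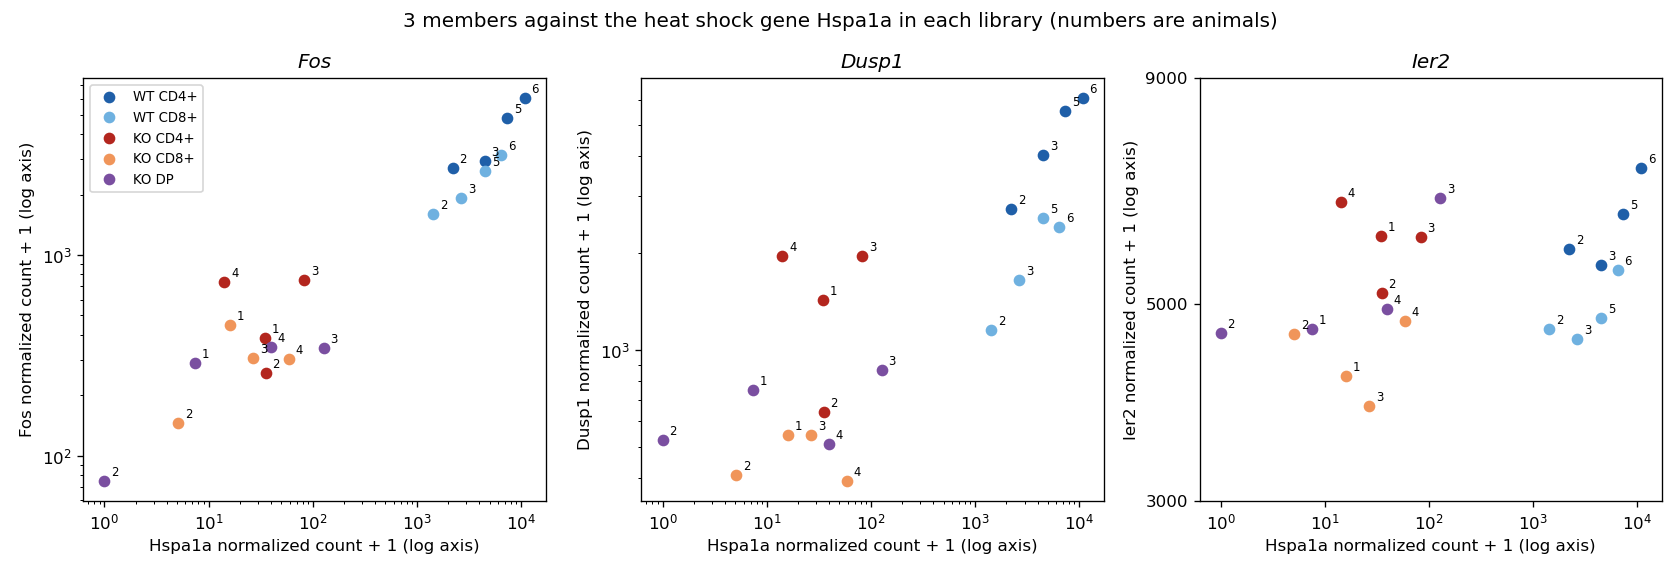
*Fos*, *Dusp1* and *Ier2* against *Hspa1a* in each of the 20 libraries, as normalized counts plus 1 on log axes, with animal numbers beside the points. WT libraries, at 1435 or more for *Hspa1a*, and KO libraries, at 127 or less, form separate clouds that differ in *Fos* but share the range of *Ier2*.

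Transcripts of other cell types also differed between the libraries. The 7 neutrophil genes, led by *S100a9* in the mean over all libraries, summed to 1822 to 4384 in the WT libraries. The sums were 71.7, 5.89, 4211 and 500 in KO CD4+, 170, 12.4, 2736 and 490 in KO CD8+ and 137, 2.94, 7334 and 539 in KO DP cells. KO animal 2, the lowest for many members, thus had almost none, with *S100a8*, *S100a9* and *Ngp* at 0 in its 3 libraries, and KO animal 3 the most. All 7 had log2 differences below 0 between KO and WT in both subsets, with medians of -4.12 in CD4+ and -3.78 in CD8+ cells. Of these 7 genes 1 passed as lower in KO in each subset. For this and the following lists, 9.77% and 12.5% of all genes were lower in KO CD4+ and CD8+ cells. The shares of genes that were higher were 8.59% and 12.6%. Of 5 dendritic cell genes 4 were lower in KO in each subset (*Flt3*, *Zbtb46*, *Xcr1* and *Clec9a*), while the sum was led by *Itgax*, which T cells also express. Of 8 monocyte and macrophage genes, led by *Itgam* in the mean over all libraries, 3 were lower in CD4+ and 0 in CD8+ cells by limma. The 5 B cell genes examined summed to 63.4 to 274 in WT and 646 to 2284 in KO libraries, with *Cd79b* the most abundant. *Ms4a1* and *Pax5* had group means of at most 3.10, and *Blnk*, too rare to test, had means of 8.66 and 13.5 in WT CD4+ and CD8+ cells and of at most 3.86 in KO cells. Both *Cd79a* and *Cd79b* were higher in KO CD4+ cells, and *Cd79b* alone in KO CD8+ cells. Of the 7 pancreatic acinar genes, led by *Amy2a5*, 1 passed as higher in KO CD4+ and 0 in KO CD8+ cells. All 7 had log2 differences above 0 in both subsets, with medians of 0.97 and 1.45. They summed to 7310, 7676 and 8872 in the CD4+, CD8+ and DP libraries of KO animal 3. The sums were 947 to 3379 in the other KO libraries and 759 to 2547 in WT libraries. Of the stromal and endothelial genes 1 was higher in each subset, *Pecam1*. Its group means were 2415 to 7197, whereas those of *Col1a1* were at most 53.6 and those of the rest of the list at most 16.3. The part of these cells in the member levels was not tested.

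The members are compact genes. In the RefSeq annotation of GRCm38.p6, 7 of the 10 span under 10000 bases, as do 26.5% of the 14617 protein-coding genes of the table with a RefSeq length, whose median is 22174 bases. *Jun* (3187 bases), *Junb* (1840) and *Ier2* (1522) have a single exon, and *Fos* spreads 2109 bases of exon over 4 exons at chr12:85473890-85477274 on the + strand. At the other end, *Nr4a1* spans 20894 bases with 7 exons and *Npas4* 19087 bases with 8.

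The promoter set used here held 8 of the members and lacked *Ier2* and *Egr1*. The 250 bases before the RefSeq start were searched on both strands for TGACG, the core of the cAMP response element, which 7 of the 8 held (all but *Jun*), as did 17.8% of 32851 promoters. The full palindrome TGACGTCA, which contains TGACG on both strands, was found in *Dusp1* alone (1.55% of promoters), and TATAAA in *Fos* alone (12.4%). The CArG box bound by serum response factor (1.47% of promoters) and the AP-1 motif TGANTCA (6.75%) were found in 0 of 8, which says only that these letters are not in this window. The 4 windows below, from RefSeq GRCm38.p6, show 3 AP-1 genes (*Fos*, *Jun* and *Junb*) and the member with the palindrome, each 5′ to 3′ on the strand of the gene, upstream of the annotated exons, with TGACG and its reverse complement in capitals. They lie at chr12:85473640-85473889 on the + strand (*Fos*), chr4:95052223-95052472 (*Jun*), chr8:84978749-84978998 (*Junb*) and chr17:26508473-26508722 (*Dusp1*), the last 3 on the - strand.
Fos: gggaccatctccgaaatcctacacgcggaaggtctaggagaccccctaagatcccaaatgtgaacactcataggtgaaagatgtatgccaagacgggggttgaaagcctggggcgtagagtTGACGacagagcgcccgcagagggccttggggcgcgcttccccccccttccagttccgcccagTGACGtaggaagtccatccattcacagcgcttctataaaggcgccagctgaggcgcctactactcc
Jun: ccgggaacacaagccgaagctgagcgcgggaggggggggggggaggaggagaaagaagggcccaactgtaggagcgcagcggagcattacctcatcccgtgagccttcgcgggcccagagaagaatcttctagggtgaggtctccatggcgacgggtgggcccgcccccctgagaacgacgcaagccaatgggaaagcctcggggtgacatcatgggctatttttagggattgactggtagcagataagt
Junb: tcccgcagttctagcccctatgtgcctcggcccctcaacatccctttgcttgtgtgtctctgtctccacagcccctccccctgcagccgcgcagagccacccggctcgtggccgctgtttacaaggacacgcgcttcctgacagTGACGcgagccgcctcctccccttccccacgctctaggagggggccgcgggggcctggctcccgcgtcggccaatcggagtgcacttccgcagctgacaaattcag
Dusp1: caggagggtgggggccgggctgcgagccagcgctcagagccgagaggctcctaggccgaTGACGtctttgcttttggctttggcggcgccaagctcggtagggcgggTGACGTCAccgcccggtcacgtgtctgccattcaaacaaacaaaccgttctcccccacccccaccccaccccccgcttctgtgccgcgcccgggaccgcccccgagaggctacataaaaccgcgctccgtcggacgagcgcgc

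The capitals begin 129 and 66 bases before the start of *Fos*, 106 bases before that of *Junb*, and 191 and 143 bases before that of *Dusp1*, where the second is the palindrome. A match is a string of letters and does not show that a factor binds there.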

How the data were processed

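The deposited table holds signal, that is, gene counts that the authors normalized with DESeq2 size factors. Per the study's methods and the submitters' processing notes, poly(A)-selected strand-specific libraries were aligned to mm10 (GRCm38) with STAR (version 2.7.2b in the notes). Multiplying by a factor recovered for each library gave whole read pairs for 100% of values, within 0.0001. Genes with a mean of at least 10 over the libraries compared were tested with limma 3.58.1 (R 4.3.3; mean-variance trend, two-sided) on log2(normalized count + 1), with Benjamini-Hochberg adjustment over all genes tested and a threshold of 0.05. Log2 differences are on that scale. For rare genes they depend on the pseudocount and on libraries at 0, and can differ from the ratio of means. The procedure was tested on simulated counts.

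On the recovered reads, edgeR 4.0.16 called 1 gene and DESeq2 1.42.0 called 3 genes between KO DP and KO CD8+ cells, where limma called 1. Other alternatives were a pseudocount of 10, no filter, quantile normalization, a common 75th percentile, animal number as a block and leaving out each library. Equal numbers pair libraries within a genotype: their deviations from group means correlated at 0.271 to 0.538 in KO and 0.120 to 0.196 in WT cells. The labels do not say outright that equal numbers are 1 animal. Members and lists were chosen with earlier results of these data known. Genes that could be named were all members, their relatives in the early lists, up to 6 other early or upstream genes with the largest called change per comparison, the 4 most abundant and 4 most changed heat shock genes, and the 8 genes most like the member score by each measure. Genes named beside these, such as *Cd69* and *Zfp36l2* in KO against WT and the markers, were chosen after their values were seen. *Hprt*, *Cd40lg*, *Ly6g*, *Siglech*, *Hba-a1*, *Hba-a2*, *Hbb-bt*, *Hbb-bs* and *Alas2* were not analysed here.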

Additional observations from a re-analysis of the deposited data

Results flagged for a closer look

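Within the 4 libraries of a group, 5 of 50 member and group combinations had 1 library far from the other 3, where chance gives about 1 in 20. *Ier2* stood at 6596 normalized counts in KO DP animal 3, above the rest of its group. *Atf3* was at 24.8 in WT CD4+ animal 6, below the other WT CD4+ libraries, and at 21.6 in KO CD8+ animal 2, above the other KO CD8+ libraries. *Npas4* was at 41.5 in KO CD8+ animal 3 and at 29.8 in KO DP animal 3, each above its group. The *Atf3* and *Npas4* values rest on few reads.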

How the results depend on the processing

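Genes called between KO and WT were 2274 in CD4+ and 3118 in CD8+ cells, and other early genes called lower 15 and 21. With the replicate block these became 26, 89, 1 and 3; KO and WT libraries share only the numbers 2 and 3, whose deviations correlated at -0.072 to 0.115, so the block does not pair animals there. For DP against KO CD4+ cells the count was 237, 728 by DESeq2 and 860 with the block. Between KO CD4+ and CD8+ cells 514 were called, 956 by DESeq2 and 2305 with the block. Between KO DP and KO CD8+ cells DESeq2 called 3 in place of 1. For genotype by subset 2 genes were called, 7 with no filter on low values, 1 by edgeR, 21 by DESeq2 and 173 with the block. Without 1 library, the counts ran from 628 to 2963 and 1633 to 4092 for KO against WT in CD4+ and CD8+ cells, 6 to 18 and 12 to 24 for the other early genes lower, 0 to 5 for those lower in DP than in KO CD4+ cells, 4 to 8 for those higher in KO CD4+ than CD8+ cells, 84 to 279 for DP against KO CD4+, 233 to 486 for KO CD4+ against CD8+, and 0 to 5 for genotype by subset. Of all other counts and member values, 899 stayed on their side of the threshold or within the replicate spread, some near 0 with a changed sign, 15 newly passed it, 20 no longer did and 37 moved by more than the spread between replicates or by over 1.5 times. For *Ier2* between KO CD4+ and CD8+ cells the adjusted p ran from 0.00517 to 0.067 over the 7 alternatives. The cause of these changes was not tested, beyond the smaller samples without 1 library. Low counts limit *Atf3* and *Npas4*, whose KO against WT log2 difference in CD8+ cells was -1.81 and -2.91 with a pseudocount of 10.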
